A study of Mus musculus with 19 samples.

Results

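The satellite glia genes described here are Fabp7, Kcnj10, Glul, Ednrb, Cadm2, Gja1, Slc1a3 and Sox10. They are 8 of the 36682 genes of the annotated expression table, taken by name. They were measured by bulk RNA sequencing in dorsal root ganglia, which hold the cell bodies of sensory neurons. The study asked what macrophage depletion does in a mouse model of knee osteoarthritis.

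All 19 mice were male and homozygous for MaFIA (macrophage Fas-induced apoptosis). In this transgene the promoter of Csf1r, the receptor for colony stimulating factor 1, drives a Fas fusion protein that the drug AP20187 joins into pairs to trigger cell death. Mice received AP20187 or vehicle intraperitoneally once a day for 5 days. One arm had destabilization of the medial meniscus (DMM), a knee operation that leads to osteoarthritis, and was treated 8 weeks after it. The other arm was naive and of matched age. Each of the 4 groups had n = 5 except naive mice given AP20187 (n = 4), and libraries are named by group and mouse number. Every group carried the transgene, and no group had a sham operation. Ganglia L3 to L5 were pooled within each mouse, from the operated side in DMM mice.

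Satellite glia wrap each sensory neuron cell body in a thin sheath. They buffer potassium through the channel encoded by Kcnj10, take up glutamate through the transporter encoded by Slc1a3, turn it into glutamine with the enzyme encoded by Glul, and are joined to each other by gap junctions that contain the Gja1 product, connexin 43. Ednrb encodes the endothelin B receptor, Fabp7 a fatty acid binding protein of glia and their precursors, Sox10 the transcription factor of the neural crest glial lineage, and Cadm2 a cell adhesion molecule. None of these genes is restricted to satellite glia: Sox10 is also made by Schwann cells, Cadm2 by neurons, and Ednrb and Gja1 by vascular or connective tissue cells. In bulk tissue, fewer cells of a type and less RNA per cell cannot be told apart.

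Positions follow the deposited table, whose build is GRCm39 per the submitters' processing notes. Fabp7 lies on chromosome 10 from 57660977 to 57664546, and Gja1 on the same chromosome from 56253426 to 56278609. Glul lies on chromosome 1 from 153775690 to 153785469 and Kcnj10 from 172168777 to 172201652. Slc1a3 lies on chromosome 15 from 8663608 to 8740248 and Sox10 from 79039108 to 79049440. Ednrb lies on chromosome 14 from 104052061 to 104081838. Cadm2, on chromosome 16 from 66452307 to 67417796, spans 965 kb. The interval of Glul overlaps Mir8114 on its own strand and Teddm2 on the other, which held mean counts of 23.9 and 35.8 against 32699 for Glul. That of Slc1a3 overlaps Gm37310 on its own strand (1.53 against 1564) and that of Cadm2 overlaps 1700010K23Rik on the other strand (0.053 against 1954).

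The promoters of 3 members are shown because Ednrb and Cadm2 had the lowest levels relative to vehicle in DMM mice and Glul held the motif match found in the set. Each is the 250 bases before the gene start in RefSeq (GRCm38.p6, not the build of the expression table), read 5′ to 3′ on the gene's strand, with capitals for a motif match.
Ednrb promoter: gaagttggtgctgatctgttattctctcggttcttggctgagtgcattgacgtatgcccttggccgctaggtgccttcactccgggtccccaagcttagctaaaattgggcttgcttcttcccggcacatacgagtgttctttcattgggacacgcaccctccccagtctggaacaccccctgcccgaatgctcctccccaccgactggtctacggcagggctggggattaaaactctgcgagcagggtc
Cadm2 promoter: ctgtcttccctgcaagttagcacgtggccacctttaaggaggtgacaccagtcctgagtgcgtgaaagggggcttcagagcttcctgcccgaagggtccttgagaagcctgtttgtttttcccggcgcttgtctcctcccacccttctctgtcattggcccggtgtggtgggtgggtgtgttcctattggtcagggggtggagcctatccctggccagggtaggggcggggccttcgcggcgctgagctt
Glul promoter: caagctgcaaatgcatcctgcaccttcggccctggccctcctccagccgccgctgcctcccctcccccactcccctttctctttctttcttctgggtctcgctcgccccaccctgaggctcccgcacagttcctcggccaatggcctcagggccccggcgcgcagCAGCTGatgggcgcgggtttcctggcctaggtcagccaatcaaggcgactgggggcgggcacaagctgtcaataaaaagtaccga
They lie at chr14:103843702-103843951 on the minus strand, chr16:67620909-67621158 on the minus strand and chr1:153899679-153899928 on the plus strand. RefSeq entries matched 7 of the 8 members, all but Sox10. Both strands were searched for 3 core forms bound by Sox family factors and for an E box. Over 32851 promoters of this length, ACAAAG was held by 16.5%. The Sox form ACAATG was held by 10.7% and the Sox form AACAAT by 9.42%. The E box CAGCTG was held by 13.0%. Among the members, the only match was CAGCTG in Glul, 85 bases before the start, and the other 6 windows do not hold these letters.

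All 8 genes were well sampled. The smallest count of a member in a library was 745, in libraries of 60984830 to 74691396 counts. Of the vehicle libraries, DMM mouse 64 and naive mouse 4 stood apart. Each was the lowest of its group in pan-neuronal genes and the highest in granulocyte, erythroid and B lineage, endothelial and proliferation genes. On the first principal component DMM vehicle mouse 64 lay at -55.5, among the DMM libraries with AP20187 at -158 to -32.9, and the other 4 DMM vehicle libraries lay at 15.1 to 117. In deposited FPKM, which scales for transcript length, Glul and Fabp7 were the most abundant in every group. Group means ran from 116 to 133 FPKM for Glul and from 120.4 to 213 FPKM for Fabp7, and both overlapped in every group. The other 6 genes had group means of at most 15.6 FPKM. With vehicle, Ednrb and Sox10 came next, at 15.6 ± 4.16 and 10.9 ± 2.23 FPKM in naive mice (SD, n = 5), then Kcnj10 at 7.24 ± 1.80 and Cadm2 at 3.70 ± 0.26. Slc1a3 and Gja1 were lowest there, at 2.09 ± 0.60 and 2.07 ± 0.76 FPKM, and overlapped each other. With AP20187 the order of the middle genes differed: Sox10 stood above Ednrb, at 11.6 ± 1.08 against 7.39 ± 1.81 FPKM in naive mice (n = 4) without overlap, and at 7.49 ± 2.48 against 6.43 ± 1.26 FPKM in DMM mice (n = 5) with overlap. Cadm2 was then the lowest of the 8, at 2.38 ± 1.00 and 1.88 ± 0.41 FPKM, with values that overlapped those of Gja1.

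**Figure D1:**
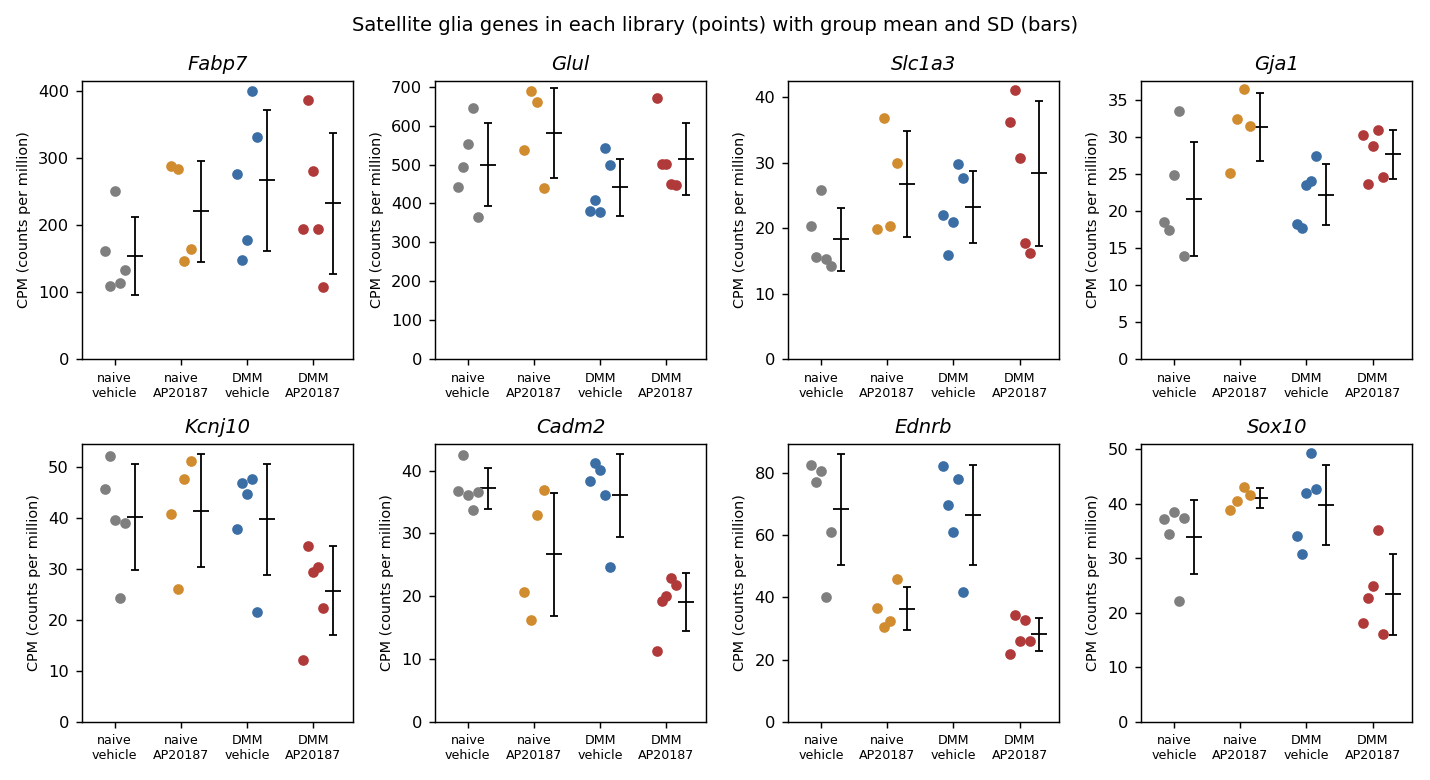
Level of each satellite glia gene in each library (points, CPM, linear axes from 0) by group, with the group mean and SD beside the points. Ednrb and Cadm2 in DMM mice with AP20187 lie below every DMM vehicle library, and Sox10 in naive mice with AP20187 lies in a narrow band from 38.8 to 43.0 CPM.

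The first question was whether these genes differed between AP20187 and vehicle in mice with DMM. They did not move as one: 3 of 8 were lower with AP20187, none was higher, and 5 did not pass the test. Among all 22778 genes tested, 23.8% passed in this comparison, 11.3% higher and 12.4% lower. The test was edgeR's quasi-likelihood test with Benjamini-Hochberg adjustment over all tested genes and a threshold of 0.05, and levels are CPM, the count scaled to the normalized library size. The median log2 fold change of the 8 genes was -0.41, and that of all tested genes was -0.10.

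Ednrb had the largest difference of the 8. It was at 21.7, 34.4, 26.1, 32.8 and 25.9 CPM in DMM mice 58 to 62 with AP20187, and at 82.2, 69.9, 61.0, 78.0 and 41.8 CPM in DMM vehicle mice 32, 33, 34, 63 and 64. Every AP20187 library lay below every vehicle library, as for 4.18% of all genes in that direction. The means were 28.2 ± 5.29 and 66.6 ± 16.1 CPM (SD, n = 5 each), a log2 fold change of -1.24 (SE 0.22) with an edgeR adjusted p of 0.00104. Ednrb passed whichever single library was left out, with an adjusted p of at most 0.00425, and with the DMM vehicle mice of either number series alone (log2 fold change -1.04 against mice 63 and 64, and -1.33 against mice 32 to 34).

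Cadm2, the adhesion molecule, was at 11.3, 19.3, 20.1, 22.9 and 21.8 CPM in DMM mice 58 to 62 with AP20187. In DMM vehicle mice 32, 33, 34, 63 and 64 it was at 38.3, 41.2, 40.0, 36.1 and 24.6 CPM. The groups did not overlap, though the highest AP20187 library and the lowest vehicle library, mouse 64, lay close together. The means were 19.1 ± 4.57 and 36.0 ± 6.67 CPM (n = 5 each), a log2 fold change of -0.92 (SE 0.22, edgeR adjusted p 0.00781). Against vehicle mice 63 and 64 alone the log2 fold change was -0.64 and did not pass (adjusted p 0.207).

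Sox10, the lineage transcription factor, was at 18.2, 22.8, 24.9, 35.1 and 16.0 CPM in DMM mice 58 to 62 with AP20187. It was at 34.1, 30.8, 42.0, 49.3 and 42.7 CPM in DMM vehicle mice 32, 33, 34, 63 and 64. Mouse 61 with AP20187 lay within the vehicle range, and the other 4 lay below it, with mouse 62 the lowest. The means were 23.4 ± 7.44 and 39.8 ± 7.36 CPM (n = 5 each), a log2 fold change of -0.77 (SE 0.20, edgeR adjusted p 0.0117).

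Kcnj10, the potassium channel, did not pass. It was at 12.2, 34.5, 29.4, 30.4 and 22.3 CPM in DMM mice 58 to 62 with AP20187 and at 37.8, 46.8, 44.6, 47.7 and 21.6 CPM in the DMM vehicle mice, in the order given above. All 5 AP20187 libraries lay below the vehicle mean, and vehicle mouse 64 lay among them. The log2 fold change was -0.62 (SE 0.28, edgeR adjusted p 0.107). Without vehicle mouse 64 it was -0.78 and passed (adjusted p 0.0305).

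The 2 genes of glutamate uptake and conversion, the gap junction gene and Fabp7 also did not pass. Glul ran from 447 to 671 CPM under AP20187 and from 379 to 541 CPM under vehicle (log2 fold change 0.22, edgeR adjusted p 0.422). Slc1a3 ran from 16.1 to 41.1 CPM and from 15.9 to 29.8 CPM (0.29, adjusted p 0.479). Gja1 ran from 23.7 to 31.0 CPM and from 17.8 to 27.5 CPM (0.32, adjusted p 0.277), and 5 of 5 AP20187 libraries were above its vehicle mean. Fabp7, the most variable of the 8 in this arm, ran from 107 to 387 CPM and from 149 to 399.8 CPM (-0.20, adjusted p 0.725). For these 4 genes the groups overlapped, and a p that misses the threshold does not show that the levels were equal.

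In naive mice, AP20187 against vehicle addresses the same question without surgery. Only 1 of 8 genes passed, Ednrb, which was lower, against 11.2% of all genes tested and 2.57% in the lower direction. The direction of calls over all genes depended on scaling here: 1962 were higher and 586 lower, against 1550 and 915 without TMM normalization and 1594 and 2364 by limma on log2(FPKM + 1). The median log2 fold change was 0.25 for the 8 genes and -0.07 for all genes tested. By limma on log2(FPKM + 0.1) the median over all genes was -0.21.

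Ednrb was at 36.6, 30.4, 32.5 and 45.9 CPM in naive mice 1, 3, 4 and 5 with AP20187, and at 82.6, 77.0, 80.7, 40.1 and 61.1 CPM in naive vehicle mice 1 to 5. Vehicle mouse 4 lay within the AP20187 range, and the other 4 vehicle libraries lay above it. The means were 36.4 ± 6.88 (n = 4) and 68.3 ± 17.9 CPM (n = 5), a log2 fold change of -0.91 (SE 0.23) with an edgeR adjusted p of 0.0173. The call rested on few libraries: the adjusted p was 0.0509 without AP20187 mouse 1 and 0.0744 without AP20187 mouse 3.

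The other 7 genes did not pass in naive mice. Sox10 was at 38.8, 40.5, 43.0 and 41.6 CPM with AP20187 and at 37.1, 34.5, 38.5, 22.1 and 37.4 CPM with vehicle. All 4 AP20187 libraries lay above all 5 vehicle libraries, as for 9.39% of all genes in that direction, but by little (log2 fold change 0.27, SE 0.21, edgeR adjusted p 0.391). In FPKM, which carries no TMM factor, these groups overlapped, at 10.4 to 12.7 and 7.07 to 12.6. In this arm the estimate for Sox10 was thus above 0, where in DMM mice it was below 0.

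Cadm2 was at 20.7, 16.2, 32.9 and 36.8 CPM in naive mice 1, 3, 4 and 5 with AP20187 and from 33.8 to 42.5 CPM with vehicle. Mouse 5 lay within the vehicle range and the other 3 below it (log2 fold change -0.48, edgeR adjusted p 0.185). By limma on log2(FPKM + 1) Cadm2 passed (adjusted p 0.0460). Gja1 was at 25.2, 32.4, 36.5 and 31.5 CPM with AP20187 and at 18.5, 17.4, 24.9, 33.5 and 13.9 CPM with vehicle (0.54, adjusted p 0.109). Here vehicle mouse 4 alone lay among the AP20187 libraries, and without it the log2 fold change was 0.75 with an adjusted p of 0.0185.

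The remaining 4 genes overlapped between the naive groups. Kcnj10 ran from 26.0 to 51.1 CPM under AP20187 and from 24.2 to 52.2 CPM under vehicle (log2 fold change 0.05, edgeR adjusted p 0.933), an estimate whose sign changed with the scaling. Slc1a3 ran from 19.9 to 36.8 and from 14.2 to 25.9 CPM (0.55, adjusted p 0.208). Fabp7 ran from 147 to 288 and from 109 to 250.2 CPM (0.53, adjusted p 0.339), and Glul from 439 to 689.6 and from 365 to 645 CPM (0.22, adjusted p 0.458).

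**Figure D2:**
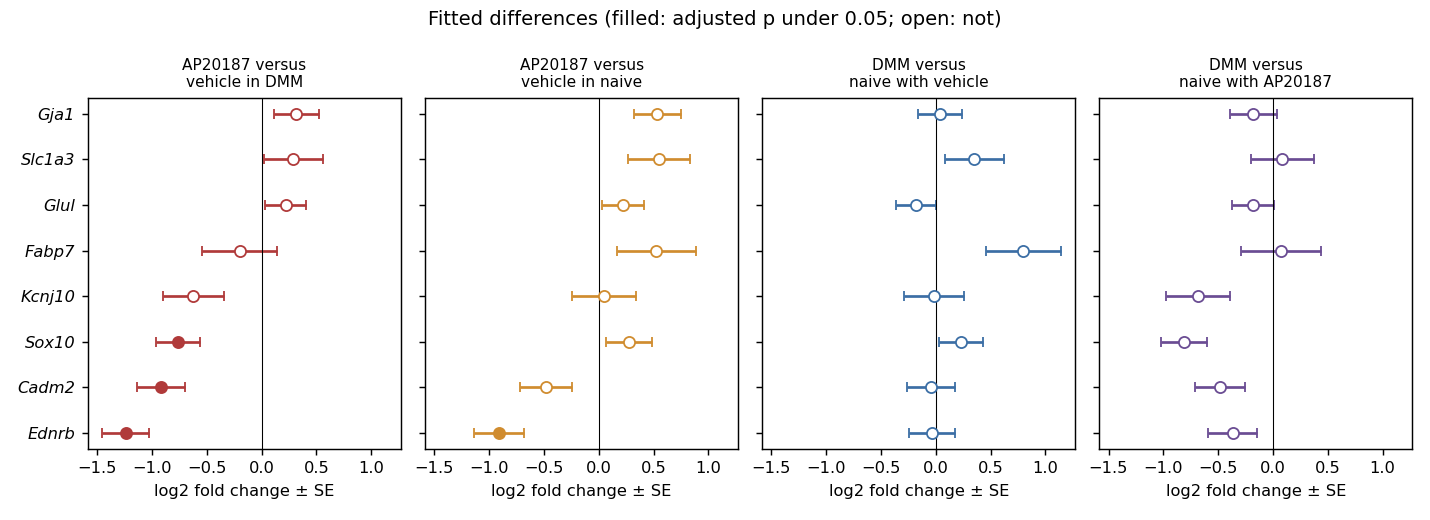
Fitted log2 fold change and SE of each satellite glia gene in the 4 pairwise comparisons, with filled points for an edgeR adjusted p under 0.05. Ednrb is filled in both AP20187 panels, Cadm2 and Sox10 in the DMM panel, and no gene in either comparison of DMM with naive.

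DMM against naive compares operated with unoperated mice. With no sham group, it cannot separate the joint damage from the rest of the procedure. With vehicle, none of the 8 genes passed edgeR's test, and neither did any other gene (0% of 22778, with 377 at an unadjusted p under 0.05 and 0 by DESeq2). Ednrb had means of 66.6 and 68.3 CPM and Cadm2 of 36.0 and 37.2 CPM in DMM and naive mice. Fabp7 had the largest estimate of the 8, at 149 to 399.8 CPM in DMM and 109 to 250.2 CPM in naive mice (log2 fold change 0.80, SE 0.34, unadjusted p 0.0315, adjusted p 1). The other log2 fold changes were 0.35 for Slc1a3, 0.23 for Sox10, 0.038 for Gja1, -0.016 for Kcnj10, -0.036 for Ednrb, -0.045 for Cadm2 and -0.18 for Glul. The median of the 8 was 0.011, and that of all genes tested was 0.027. With DMM vehicle mice 63 and 64 alone, 541 genes passed, and none of them was a member.

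With AP20187, again none of the 8 passed between DMM and naive mice, against 0.702% of all genes. Of those, 60 were higher and 100 lower, and without TMM normalization 138 and 96. Sox10 came nearest: its 5 DMM libraries, at 16.0 to 35.1 CPM, lay below all 4 naive libraries, at 38.8 to 43.0 CPM, as for 2.44% of all genes in that direction. Its log2 fold change was -0.81 (SE 0.21, edgeR adjusted p 0.0737). In FPKM the ranges overlapped, at 4.54 to 11.2 in DMM and 10.4 to 12.7 in naive mice. It passed by DESeq2 (-0.79, adjusted p 0.0115) and in edgeR without DMM mouse 61 (adjusted p 0.0248). Kcnj10 had a log2 fold change of -0.69 (edgeR adjusted p 0.247), Cadm2 of -0.48 (0.303) and Ednrb of -0.37 (0.416). Gja1 and Glul stood at -0.18 each, Fabp7 at 0.075 and Slc1a3 at 0.087, and the signs of Glul, Fabp7 and Slc1a3 turned in some settings. Of the 8 estimates 6 were below 0, with a median of -0.27 against -0.0093 for all genes tested. These comparisons share libraries with the AP20187 comparisons above, so their values are given side by side and not as separate evidence.

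Whether the difference between AP20187 and vehicle itself differed between DMM and naive mice was tested as an interaction. None of the 8 passed, against 0.114% of all genes. Sox10 had the largest estimate, -1.04 (SE 0.29, unadjusted p 0.00196, edgeR adjusted p 0.240), and Ednrb stood at -0.33 (SE 0.31, adjusted p 0.907). Fabp7 was at -0.72, Kcnj10 at -0.67, Cadm2 at -0.44, Slc1a3 at -0.26, Gja1 at -0.22 and Glul at -0.0014, the last with a sign that turned in several settings. All 8 estimates were thus below 0, with a median of -0.38 against -0.08 for all genes tested. The pass of Sox10 and Cadm2 in DMM mice and not in naive mice is therefore not shown to be a difference between the arms.

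Ratios within a library remove the library's scale. Ednrb per count of Sox10 ran from 0.749 to 1.10 in naive mice with AP20187 and from 1.63 to 2.23 with vehicle, without overlap, vehicle mouse 4 included. In that vehicle mouse the denominator was low, with Sox10 at 22.1 CPM. Sox10 itself was also lower with AP20187 in DMM mice, so these ratios carry its own differences. In DMM mice Ednrb per count of Sox10 ran from 0.936 to 1.62 and from 0.977 to 2.41, and overlapped. Gja1 per count of Sox10 ran from 0.884 to 1.67 in DMM mice with AP20187 and from 0.489 to 0.644 with vehicle, without overlap. In naive mice it overlapped, at 0.650 to 0.849 and 0.372 to 1.52. Cadm2 per count of Sox10 ran from 0.400 to 0.885 and from 0.939 to 1.53 in naive mice, without overlap, and overlapped in DMM mice, at 0.621 to 1.36 and 0.575 to 1.33. Of the 14 ratios to Sox10 (7 genes in both arms) these 3 did not overlap. Among all other tested genes, the ratio to Sox10 did not overlap and was higher in 16.7% in DMM mice, and did not overlap and was lower in 15% in naive mice, so such a ratio was common. Per count of Fabp7 in place of Sox10, Ednrb in naive mice still did not overlap, while Gja1 in DMM mice and Cadm2 in naive mice did. The ratios were described only, without a test.

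**Figure D3:**
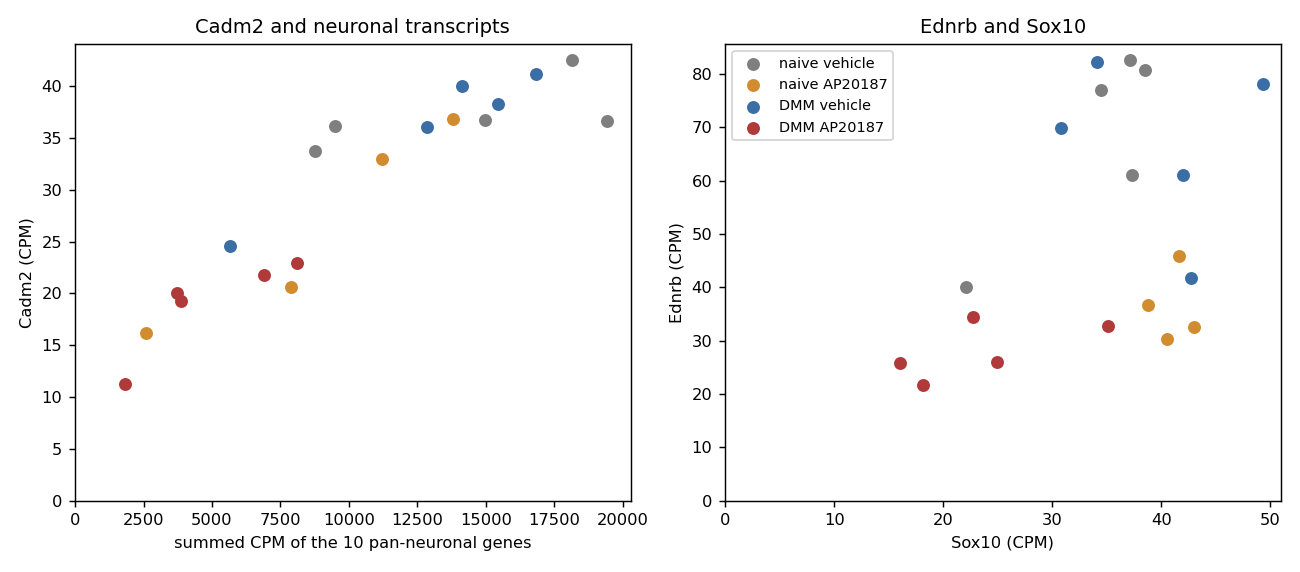
Left, Cadm2 against the summed CPM of 10 pan-neuronal genes in each library. Right, Ednrb against Sox10, both in CPM. The lowest library of Cadm2 is also the lowest in neuronal transcript in each group, while in naive vehicle mice Cadm2 stays between 33.8 and 42.5 CPM. The 4 naive libraries with AP20187 have Sox10 of 38.8 to 43.0 CPM beside Ednrb of 30.4 to 45.9 CPM.

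Transcripts of other cell types differed along with these genes. The summed level of 10 pan-neuronal genes ran from 1826 to 8100 CPM in DMM mice with AP20187 and from 5645 to 16853 CPM with vehicle, and 7 of 10 were lower (median log2 fold change -1.43). Against DMM vehicle mice 63 and 64 alone 0 of 10 passed (median -0.87), and 4 passed without the low-count filter. The lowest DMM vehicle library in this sum was mouse 64, which was also the lowest of its group in Ednrb, Cadm2 and Kcnj10. In naive mice the sum ran from 2596 to 13817 CPM under AP20187 and from 8767 to 19414 CPM under vehicle, with 0 of 10 passing, and vehicle mouse 4 was the lowest of its group. DMM AP20187 mouse 58 was the lowest of all in the sum, at 1826 CPM, and in Ednrb, Cadm2 and Kcnj10. Per 100 pan-neuronal counts, Cadm2 in DMM mice ran from 0.283 to 0.618 under AP20187 and from 0.244 to 0.436 under vehicle, and Ednrb from 0.376 to 1.19 and from 0.414 to 0.740. Both ratios overlapped between the groups. Their medians under AP20187 and vehicle were 0.499 and 0.280 for Cadm2, and 0.698 and 0.533 for Ednrb. The part of neuronal content in the results for these genes was not tested.

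Granulocyte and precursor genes rose in 7 of 8 cases in DMM mice and in 8 of 8 in naive mice. Their sum ran from 16347 to 28105 CPM under AP20187 and from 364 to 7198 CPM under vehicle in DMM mice, and from 7848 to 26981 and from 759 to 2108 CPM in naive mice. Proliferation genes were higher in 5 of 5 cases in each arm. Erythroid and B lineage genes were lower in 5 of 7 and 3 of 7 cases. The part of these transcripts in the results was not tested. Macrophage genes were not lower: 1 of 8 was higher in DMM mice and 3 of 8 in naive mice, and Csf1r itself was at 69.1 ± 35.9 and 70.0 ± 48.3 CPM in DMM mice with AP20187 and vehicle (n = 5 each). Groups are therefore named here by drug and not by loss of macrophages. Of 5 endothelial genes Pecam1 and Tek were higher in DMM mice (median 0.76) and Tek in naive mice (median 1.22). Their sum ran from 127 to 231 CPM under AP20187 and from 57.7 to 121 CPM under vehicle in DMM mice, and from 172 to 383 and from 53.7 to 272 CPM in naive mice. None of 5 fibroblast genes passed in either arm. The part of endothelial transcripts in the results for Ednrb and Gja1 was not tested.

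A wider list of 15 other genes made by satellite glia was examined next. In DMM mice 6 were lower with AP20187, none was higher and 9 did not pass (median log2 fold change -0.63). By the smallest adjusted p they were led by Atp1b2, a sodium pump subunit (-0.72, edgeR adjusted p 0.00636), the glial adhesion molecule gene Hepacam (-0.88, 0.00688), Aldoc, a glycolytic enzyme of glia (-0.80, 0.00716), and S100b, a calcium binding protein (-0.79, 0.0101). With DMM vehicle mice 63 and 64 alone, 1 of 15 passed. Several genes of the list did not pass, among them Apoe, Cdh19 and Gfap, with log2 fold changes from -0.16 to -0.09. In naive mice 1 was higher, Dbi, which encodes a binding protein for acyl-CoA (1.80, adjusted p 0.0117), and none was lower (median -0.10).

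Schwann cell genes bear on Sox10, which they share. Of 8 myelinating Schwann cell genes 2 were lower in DMM mice, among them the myelin protein gene Pmp22 (-0.83), with a median log2 fold change of -0.61. Against DMM vehicle mice 63 and 64 alone 0 of 8 passed, and against mice 32 to 34 alone 1 of 8. Of 4 non-myelinating Schwann cell genes 3 were lower, Cdh2, Ngfr and L1cam (median -1.45), and L1cam and Ngfr are also made by neurons. None of either list passed in naive mice. Of 10 other neural crest and glial transcription factors 5 were lower in DMM mice and none higher (median -0.79). They were Sox6 (-1.23), Foxd3 (-1.14), Pou3f1 (-1.28), Sox2 (-0.96) and Egr2, the last a driver of myelination. Against DMM vehicle mice 32 to 34 alone 1 of 10 passed, and in naive mice Pax3 was higher and none lower. Pax3 was at 0 in a library of every group and did not pass without the low-count filter or without the vehicle mice 64 and 4.

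**Figure D4:**
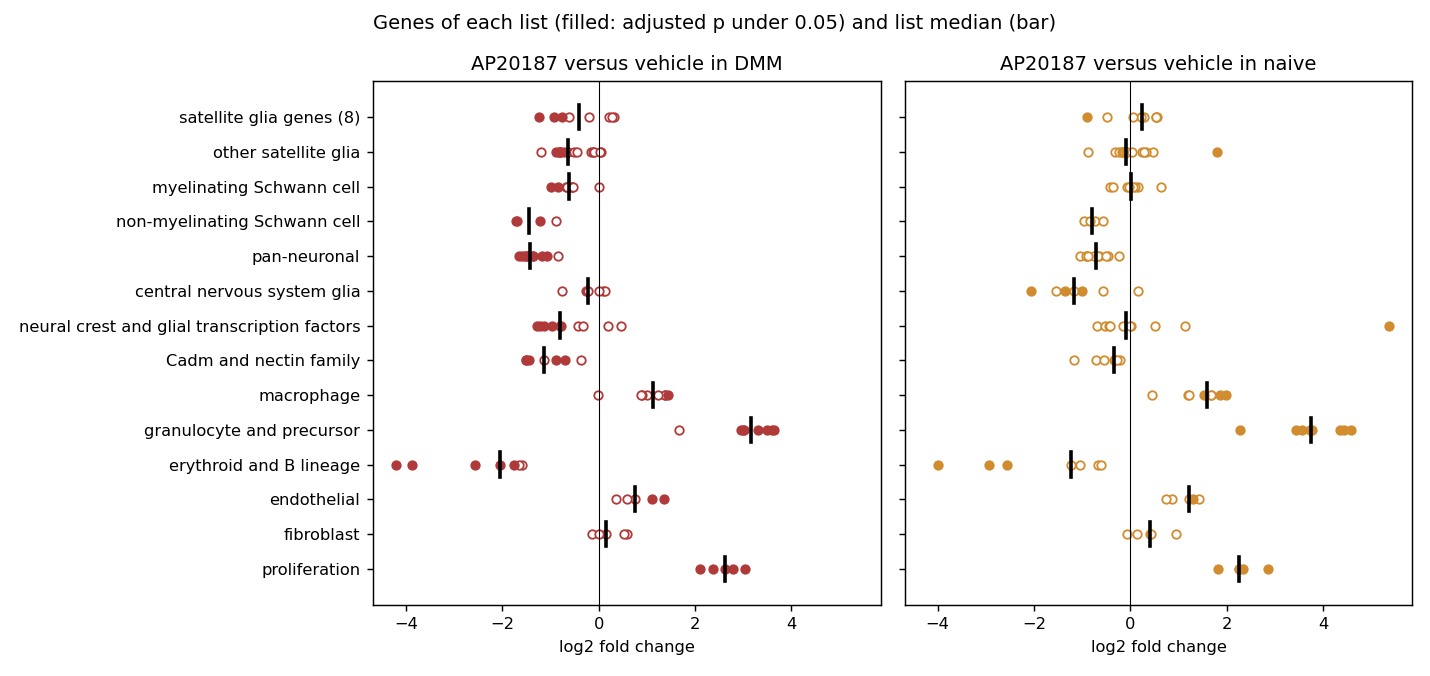
Log2 fold change with AP20187 of each gene in 14 lists, in DMM and in naive mice (points, filled where the edgeR adjusted p was under 0.05; bars are list medians). The 8 satellite glia genes spread on both sides of 0 in each arm, while the granulocyte list lies to the right of 0 in both and the pan-neuronal list to the left.

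In the pathway around Ednrb, a ligand gene passed in both arms and the other receptor gene in neither. Edn1, which encodes endothelin 1, ran from 3.98 to 11.4 CPM in DMM mice with AP20187 and from 0.597 to 1.91 CPM with vehicle (log2 fold change 2.23, edgeR adjusted p 0.0115). In naive mice it ran from 3.45 to 16.2 CPM and from 0.684 to 5.68 CPM (2.15, adjusted p 0.0268). In DMM mice these groups did not overlap, and in naive mice they did. Ednra, the endothelin A receptor, was at 9.02 ± 1.19 and 8.62 ± 3.05 CPM in DMM mice (0.07, adjusted p 0.882) and had a log2 fold change of 0.04 in naive mice. Edn3, the endothelin that acts on the B receptor in neural crest cells, had log2 fold changes of -0.03 and 0.22 and did not pass. Ece2, an endothelin converting enzyme, was lower in DMM mice (-1.15, adjusted p 0.046). Of the 6 genes of the list, 1 was higher and 1 lower in DMM mice, and 1 was higher in naive mice.

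The other families are given by count, against 11.3% higher and 12.4% lower among all genes in DMM mice. Of 8 inward rectifier potassium channel genes, Kcnj2 was higher (1.44) and Kcnj3 (-1.58) and Kcnj12 (-1.34) lower in DMM mice. Kcnj16, whose channel subunit pairs with that of Kcnj10, had a log2 fold change of -0.74 and did not pass (adjusted p 0.0886). In naive mice Kcnj9 alone of the 8 was lower. Of 8 genes of glutamate and glutamine handling, Got1, an aspartate aminotransferase, was lower in DMM mice (-0.97). In naive mice Slc1a2, the other main glial glutamate transporter, was lower (-1.09, edgeR adjusted p 0.00176), where Slc1a3 had an estimate of 0.55. In DMM mice Slc1a2 had a log2 fold change of -0.19 and did not pass (adjusted p 0.460). With AP20187, Slc1a2 was higher in DMM than in naive mice (1.02, adjusted p 0.0157). Its interaction did not pass (0.90, adjusted p 0.239).

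Of 10 connexin and pannexin genes, Gja5 was higher and the pannexin gene Panx1 lower in DMM mice (Panx1 -1.22, edgeR adjusted p 0.0026). In naive mice Panx1 was lower (-0.83). The glial connexin genes Gjb1 and Gjc3 had log2 fold changes of -0.58 and -0.57 in DMM mice and did not pass. Of 4 tested fatty acid binding protein genes, Pmp2, the myelin member, was lower in DMM mice (-1.68, adjusted p 0.00302), as was Fabp3 (-0.66), and none passed in naive mice. Of 7 Cadm and nectin family genes 5 were lower in DMM mice (median -1.13), with Nectin1 at -1.50, Cadm4 at -0.89, Cadm1 at -1.50 and Nectin2 at -0.71. None of these 7 passed in naive mice, and against DMM vehicle mice 63 and 64 alone 1 of 7 passed.

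Genes of glia of the central nervous system were on a further list of 7. None passed in DMM mice, and in naive mice Mog, Olig1 and Slc6a11 were lower with AP20187 (3 of 7). The list summed to 19.4 to 37.2 CPM over all libraries, on the scale of a single member such as Gja1, at 13.9 to 36.5 CPM. Group means ran from 8.48 to 14.9 CPM for Aqp4 and from 3.81 to 7.65 CPM for Slc6a11. Mog, a myelin gene of oligodendrocytes, was scarce, at 1.34 CPM or less and at 0 in a naive library with AP20187. The part of this list in the results for the 8 genes was not tested.

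The genes also differed in how they varied among mice of one group. The measure was Pearson's r of log2 CPM after subtraction of the group mean over 19 libraries, given as a description, since libraries share depth and cell makeup. Kcnj10 varied most like Cadm2 (r = 0.82) and Ednrb (0.80), Fabp7 like Slc1a3 (0.75), and Glul like Gja1 (0.68). Glul ran against Cadm2 (-0.59) and Kcnj10 (-0.56). With the pan-neuronal sum, r was 0.90 for Cadm2 and 0.78 for Kcnj10 but -0.73 for Glul. With the sum of the genes listed for glia of the central nervous system it was 0.90 for Cadm2, 0.89 for Kcnj10, 0.82 for Ednrb and -0.68 for Glul. With the macrophage sum it was 0.87 for Slc1a3, 0.70 for Fabp7 and 0.67 for Glul. Sox10 stood at 0.68 with the myelinating Schwann cell sum, and Ednrb at -0.65 with the granulocyte sum.

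Over all tested genes, the nearest to each member by the same measure were these. For Kcnj10 they were Megf10 and Ptprz1 (r = 0.94 for both), for Cadm2 Gabra5 and Slc35f1 (0.97 and 0.96), and for Ednrb Cab39l and Ensa (0.92 and 0.89). Fabp7 was nearest to Cibar1 and Aspa (0.96 and 0.95), Slc1a3 to Agmo and Enpp2 (0.95 and 0.94), and Gja1 to Clic4 and Thbd (0.95 and 0.93). Glul was nearest to Dock1 and Nfatc2 (0.92 and 0.90). Sox10 had the least close neighbours, Tpd52l1 and Mcub (0.86 and 0.84). Of these 16 genes none was shared between members.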

How the data were processed

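RNA was measured in pooled L3 to L5 ganglia of 19 mice, with TruSeq stranded poly(A) libraries per the labels. The submitters' processing notes name cutadapt, HISAT2, StringTie and GRCm39, without versions. Whether counting used strand is not given in the sources used here. The authors deposited raw counts and FPKM values for 36682 annotated genes, and both were used as deposited. FPKM scales counts to transcript length and library size. A longer deposited table of counts has 56691 entries, of which 6448 have no gene name and hold 0.414% to 1.72% of the counts of a library. It was not used for tests, and its counts were equal for the 8 genes.

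One model of 4 group means was fitted to 19 libraries with edgeR 4.0.16 in R 4.3.3 (TMM normalization, filterByExpr with a minimum count of 10, quasi-likelihood test, 15 residual degrees of freedom). It tested 22778 genes in 5 contrasts, two-sided, with Benjamini-Hochberg adjustment and a threshold of 0.05. CPM uses TMM library sizes, whose factors ran from 0.900 to 1.09. The code was checked on simulated counts. Alternatives were DESeq2 1.42.0, limma 3.58.1 on log2(FPKM + 1) and log2(FPKM + 0.1), no TMM, no filter, fewer groups, parts of the DMM vehicle mice, and leaving out each library.

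The 8 genes and the lists were chosen with earlier results of these data known. All 8 were named in every comparison. Of each list the rule allowed up to 4 genes by the smallest adjusted p in DMM mice, and only some of these are printed. List genes named beyond those, in naive mice or for their role, were chosen after their values were seen. The 2 nearest genes by r were named for each member. The labels number each mouse but do not say how mice were batched. Vehicle mice 32 to 34 and 63 to 64 carry numbers from separate ranges, and whether these are batches is not stated. Results for a few list genes are not reported here.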

Additional observations from a re-analysis of the deposited data

Results flagged for a closer look

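In 32 sets of values (8 genes in 4 groups), 2 had a library far from the rest by Dixon's ratio, and chance gives about 1 in 20. Glul in DMM mice with AP20187 was highest in mouse 58, at 671 CPM, with the other 4 at 447 to 500.03 CPM. Sox10 in naive vehicle mice was lowest in mouse 4, at 22.1 CPM, with the other 4 at 34.5 to 38.5 CPM. Without naive vehicle mouse 4 and DMM vehicle mouse 64, Ednrb, Cadm2, Sox10 and Kcnj10 passed in DMM mice, and Ednrb and Gja1 in naive mice.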

How the results depend on the processing

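In DMM mice with AP20187 against vehicle, Ednrb and Sox10 passed in all 9 other settings and in all 10 fits without one library, and Cadm2 in all but the setting with vehicle mice 63 and 64 alone. The count of genes passing was 3 to 4 without one library. In naive mice it was 1, and 2 by limma on either FPKM scale (Cadm2 added), 2 without the vehicle mice 64 and 4 (Gja1 added, a setting chosen after seeing the data), and 0 to 2 without one library. Naive mice share numbers 1, 3, 4 and 5 in the labels. Same-numbered libraries had correlations of 0.02, 0.30, -0.08 and 0.18, and those of different numbers ran from -0.26 to 0.20. These values do not settle pairing, and the numbers were not treated as pairs in the main fit. Whether they mark a shared litter or day is not stated. With the replicate block 0 genes passed (Ednrb -0.80, adjusted p 0.0569), and 0 passed in the same 8 libraries unblocked (-0.84, 0.0716), a fit added later. Over all genes the block gave 2352 calls and the unblocked fit 1388. In DMM against naive with AP20187 the count was 0, 1 by DESeq2 (Sox10), and 0 to 1 without one library. The Cadm2 ratio of naive group means was -0.48 on CPM and -0.64 on FPKM (log2).

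Signs turned for small estimates that never passed. Fabp7 in DMM mice was 0.21 against vehicle mice 32 to 34. Kcnj10 in naive mice was -0.027 without TMM, -0.12 and -0.14 on FPKM, -0.091 without mice 64 and 4, and -0.092 to 0.20 without one library. For DMM against naive with vehicle, Kcnj10 was 0.0067 without TMM, 0.0014 and 0.00074 on FPKM, 0.10 with mice 32 to 34 and 0.0035 without mice 64 and 4. Ednrb was 0.00014 on log2(FPKM + 0.1) and 0.057 with mice 32 to 34, Cadm2 0.10 with mice 32 to 34 and 0.033 without mice 64 and 4, Gja1 -0.12 with mice 32 to 34 and Glul 0.073 with mice 63 and 64. Without one library these ran from -0.15 to 0.14 (Kcnj10), -0.18 to 0.092 (Ednrb), -0.097 to 0.065 (Cadm2) and -0.082 to 0.25 (Gja1). For DMM against naive with AP20187, Glul was 0.00137 and 0.00131 on FPKM, and without one library Fabp7 ran from -0.19 to 0.26 and Slc1a3 from -0.085 to 0.29. The Glul interaction was 0.031 by DESeq2, 0.058 without TMM, 0.14 and 0.14 on FPKM, 0.18 with mice 32 to 34 and -0.12 to 0.11 without one library. The causes were not tested.

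Calls over all genes moved more: from 5410 to between 1156 (vehicle mice 63 and 64) and 8450 (mice 32 to 34) in DMM, from 2548 to between 994 and 4356 in naive mice, from 160 to between 43 and 1148 for DMM against naive with AP20187, and from 26 to between 12 and 224 for the interaction. With 4 or 5 mice a group, a miss does not show equal levels.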
